A study of Mus musculus with 4 samples.

Results

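Activins and transforming growth factors beta (TGF-beta) are dimeric secreted ligands of one protein family. A ligand binds a pair of type II receptors, these phosphorylate type I receptors, and the type I receptors phosphorylate SMAD2 and SMAD3, which enter the nucleus with SMAD4 and act on target genes. Activin A is a dimer of the product of Inhba and activin B of the product of Inhbb, and follistatin (Fst) and the follistatin-like protein FSTL3 bind activins outside the cell and block them. The TGF-betas are secreted in a latent complex that has to be opened, and in carcinomas they are known for acting on tumour cells, fibroblasts and immune cells alike.

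The 10 genes described here are 5 ligand genes (Inhba, Inhbb, Tgfb1, Tgfb2 and Tgfb3), the 2 activin antagonists Fst and Fstl3, the type I receptors Acvr1b (ALK4, for activin) and Tgfbr1 (ALK5, for TGF-beta), and the type II receptor Tgfbr2. They were taken by symbol from the 23635 genes listed in any of 4 single-cell RNA libraries, and all 10 were counted. The study asked what Sema4d, the gene of a transmembrane semaphorin, does within the tumour cells of mouse tumours that model triple-negative breast cancer. There were 2 libraries of transplanted tumours with the genotype Sema4d-shRNA, in which a short hairpin RNA was used to lower Sema4d, and 2 libraries of tumours with the genotype control, also named NC. All 4 libraries are labelled with the cell line py8119, a mammary carcinoma line derived from an MMTV-PyMT transgenic mouse. The strain, sex and age of the hosts, the site and length of growth, the number of hairpins and whether a library came from 1 animal or several are not given in the labels, so p-values measure only the spread between these libraries.

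The shRNA libraries held 113904173 and 119758159 UMIs (unique molecular identifiers, 1 per captured transcript) and the control libraries 101909637 and 83513906. After filtering, 43400 cells were described. The labels call them tumour cells, but by marker genes only 73.6% and 68.4% of the cells in the shRNA libraries and 57.0% and 53.9% in the control libraries were tumour-like. The share of macrophage or monocyte-like cells was 16.1% and 16.3% in the shRNA libraries and 28.8% and 37.6% in the control libraries. Levels are given as CPM, the UMIs of a gene per 1000000 UMIs of all genes in the cells of a class in a library. In tumour-like cells Sema4d itself stood at 3.90 and 5.38 CPM in the shRNA libraries, against 6.69 and 7.44 CPM in the control libraries. Both shRNA values lay below both control values, but the log2 difference of -0.56 (SE 0.17) did not pass (edgeR adjusted p = 0.215). It passed with no filter on low counts (-0.54, edgeR adjusted p = 0.00399), where 902 of 21971 genes passed, against 109 of 14562 with the filter. Without shRNA library 2 it was -0.83 and passed, in a fit with 1 shRNA library left that called far more of all genes.

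Inhba lies on mouse chromosome 13 (GRCm38, 16011851 to 16031621, plus strand), Fst on chromosome 13 (114452290 to 114458951, minus strand), Inhbb on chromosome 1 (119415465 to 119422248, minus strand) and Tgfb1 on chromosome 7 (25687002 to 25705077, plus strand), per GENCODE M21. The others are Fstl3 on chromosome 10 (79777272 to 79782630, plus strand), Acvr1b on chromosome 15 (101174067 to 101213684, plus strand), Tgfb2 on chromosome 1 (186622792 to 186705989, minus strand), Tgfb3 on chromosome 12 (86056745 to 86079041, minus strand), Tgfbr1 on chromosome 4 (47353222 to 47414931, plus strand) and Tgfbr2 on chromosome 9 (116084293 to 116175360, minus strand). Exons of Fstl3 overlap those of Prss57 on the other strand, and exons of Tgfb2 overlap those of the antisense gene Gm29491. Since use of strand in the counting is not given in the sources used here, counts of these 2 genes are uncertain. The start regions of Inhba and Tgfb1 are shown because most results below turn on these 2 ligand genes, Inhba counted mainly in tumour-like cells and a few myeloid clusters and Tgfb1 in nearly every class. Each sequence runs from 250 bases before to 50 bases after the start of the gene, 5′ to 3′ on the gene's strand, from RefSeq on GRCm38.p6, at chr13:16011601-16011900 for Inhba and chr7:25686752-25687051 for Tgfb1. Capitals mark the letters TATAAA, which match the core of a TATA box. Whether they act as one was not tested.
Inhba: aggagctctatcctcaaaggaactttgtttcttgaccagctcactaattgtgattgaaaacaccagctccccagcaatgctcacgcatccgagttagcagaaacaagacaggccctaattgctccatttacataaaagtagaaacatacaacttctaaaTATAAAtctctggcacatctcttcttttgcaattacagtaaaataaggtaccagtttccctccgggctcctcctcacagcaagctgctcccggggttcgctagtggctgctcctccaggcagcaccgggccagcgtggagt
Tgfb1: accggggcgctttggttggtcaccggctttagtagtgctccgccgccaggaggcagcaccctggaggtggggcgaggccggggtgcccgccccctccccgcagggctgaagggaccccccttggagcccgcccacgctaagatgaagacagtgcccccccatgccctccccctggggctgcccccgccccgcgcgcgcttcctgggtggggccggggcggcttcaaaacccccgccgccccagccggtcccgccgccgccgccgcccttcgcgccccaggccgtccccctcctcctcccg
The G and C content was 47.7% for Inhba and 77.0% for Tgfb1, and 30.8% and 97.6% of the 32851 promoter windows of the same length had a lower one. TATAAA on either strand was found in the windows of Inhba, Tgfb2 and Fstl3 and in 13.6% of all windows. The letters TGANTCA (an AP-1 site, in 7.81% of windows), TGACGTCA (a cyclic AMP response element, in 1.79%), GGAATG (a TEAD site, in 14.7%) and GTCTAGAC (a SMAD palindrome, in 0.213%), searched on both strands, were in none of the windows of the 8 genes that had one.

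Inhba, the gene of the activin A subunit, had most of its UMIs in tumour-like cells. In tumour-like cells it stood at 52.8 and 51.9 CPM in the shRNA libraries, against 37.3 and 36.3 CPM in the control libraries. In macrophage or monocyte-like cells it stood at 67.1 and 14.3 CPM in the shRNA libraries and 29.8 and 8.64 CPM in the control libraries, a range that overlapped the tumour-like one. Neutrophil-like cells averaged 61.7 CPM over the 4 libraries, but on only 11 UMIs in 97 cells. In T and NK-like, dendritic-like, fibroblast-like, endothelial-like and normal mammary epithelial-like cells the mean of 4 libraries was between 2.18 and 5.67 CPM. Tumour-like cells held 87.6% and 94.7% of all Inhba UMIs in the shRNA libraries and 78.8% and 89.6% in the control libraries. Macrophage or monocyte-like cells held another 10.7% and 2.82% in the shRNA libraries and 15.4% and 7.26% in the control libraries. Free RNA from tumour-like cells could give 5.005% and 24.5% of the macrophage or monocyte-like Inhba level in the shRNA libraries and 8.31% and 23.4% in the control libraries, judged from tumour markers counted there.

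**Figure D1:**
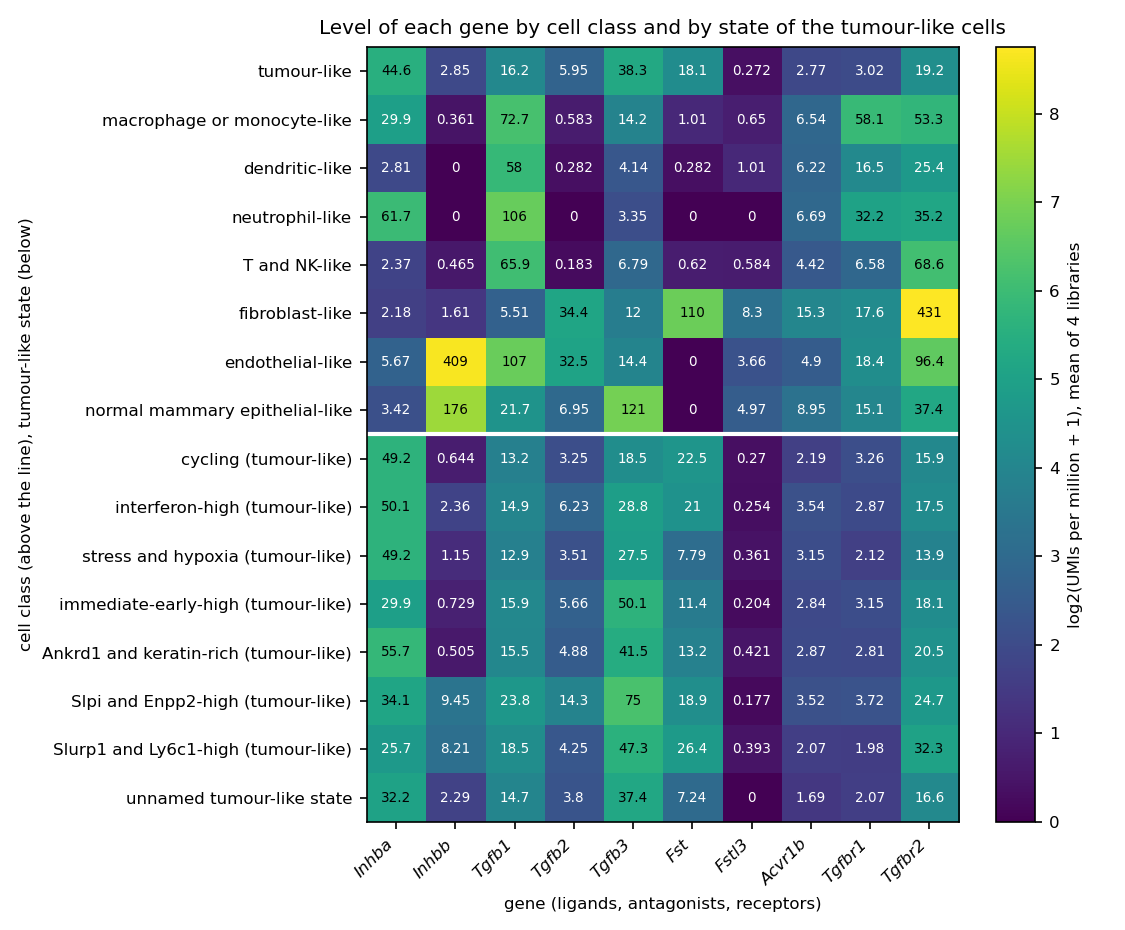
Mean level over 4 libraries in CPM (number in each cell; colour, log2 of that level plus 1) of the 10 genes (columns) in 8 cell classes and 8 states of the tumour-like cells (rows). Inhba stood at 44.6 in tumour-like cells, Inhbb at 409 in endothelial-like cells, Fst at 110 and Tgfbr2 at 431 in fibroblast-like cells, and Tgfbr1 at 58.1 in macrophage or monocyte-like cells.

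Inhbb, the gene of the activin B subunit, had another pattern. Endothelial-like cells had 503 and 363 CPM in the shRNA libraries and 287 and 483 CPM in the control libraries, from 44 cells in all. Normal mammary epithelial-like cells, 111 cells in all, had 300 and 118 CPM in the shRNA libraries and 116 and 169 CPM in the control libraries. The ranges of these classes overlapped, and both lay above tumour-like cells, which had 3.0 and 1.66 CPM in the shRNA libraries and 3.03 and 3.69 CPM in the control libraries. Because tumour-like cells were many, they still held 76.5% and 51.5% of Inhbb UMIs in the shRNA libraries and 69.0% and 78.1% in the control libraries. Neutrophil-like and dendritic-like cells had no Inhbb UMI in any library. A count of 0 allows up to 133 and 206 CPM in the shRNA libraries and 40.1 and 96.4 CPM in the control libraries for neutrophil-like cells, so Inhbb was not detectable at this depth there.

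Tgfb1, the TGF-beta gene best known from immune cells, was high in several classes at once. Its mean over 4 libraries was 107 CPM in endothelial-like, 106 CPM in neutrophil-like, 72.7 CPM in macrophage or monocyte-like, 65.9 CPM in T and NK-like and 58.0 CPM in dendritic-like cells, and each of these overlapped the next in the order. The neutrophil-like mean rests on only 9 UMIs and a range of 0 to 205.5 CPM. Endothelial-like values (94.5 to 125.9 CPM) lay above every macrophage or monocyte-like value (60.0 to 84.5 CPM), but they rest on only 49 UMIs in 44 cells. Normal mammary epithelial-like cells had 21.7 CPM and tumour-like cells 16.2 CPM. In spite of the low level, tumour-like cells held 63.0% and 58.9% of Tgfb1 UMIs in the shRNA libraries and 41.9% and 38.2% in the control libraries. Macrophage or monocyte-like cells held 28.8% and 27.1% in the shRNA libraries and 48.0% and 55.7% in the control libraries. Among named classes the main source by UMIs was therefore the tumour-like class in both shRNA libraries and the macrophage or monocyte-like class in both controls. The numbers of cells in these classes moved the same way. In control library 1 cells without a name held 6.65% of Tgfb1 UMIs, enough to close the gap between the 2 classes there.

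Tgfb2 stood lower in macrophage or monocyte-like and in T and NK-like cells than in tumour-like cells, and Tgfb3 lower in these and in dendritic-like cells, in every library. In neutrophil-like cells, with 0 Tgfb2 UMIs and 1 Tgfb3 UMI, and for Tgfb2 in dendritic-like cells, with 1 UMI in all, the counts were too few to set the level against that of tumour-like cells. Tgfb2 averaged 34.4 CPM in fibroblast-like and 32.5 CPM in endothelial-like cells, the second from a range of 0 to 106 CPM on 17 UMIs, and 5.95 CPM in tumour-like cells. Tgfb3 averaged 121 CPM in normal mammary epithelial-like cells, on 72 UMIs, and 38.3 CPM in tumour-like cells. These classes only just did not overlap, with a lowest value of 44.1 CPM in the first and a highest of 43.6 CPM in the second. The clusters of normal mammary epithelial-like cells differed in Tgfb3, as given under other observations. In the other classes Tgfb3 averaged between 3.35 and 14.4 CPM. Tumour-like cells held 82.2% to 96.7% of the UMIs of Tgfb2 and 85.2% to 94.0% of those of Tgfb3 over the 4 libraries.

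**Figure D2:**
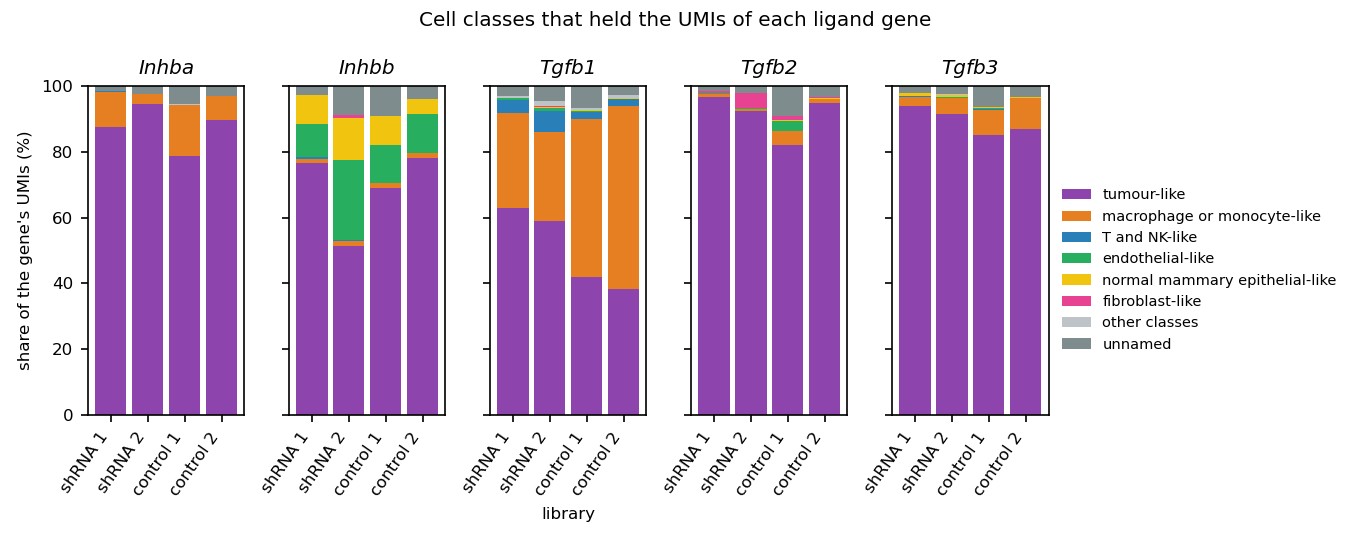
Share of each ligand gene's UMIs (vertical axis, percent) that lay in each cell class (colours), in the 2 Sema4d shRNA and the 2 control libraries (bars, left to right). Tumour-like cells held 78.8% to 94.7% of Inhba UMIs, while for Tgfb1 they held 63.0% and 58.9% in shRNA libraries and 41.9% and 38.2% in control libraries.

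Among the antagonists, Fst was highest in fibroblast-like cells. It stood at 96.1 and 81.6 CPM in fibroblast-like cells of the shRNA libraries and at 96.1 and 168 CPM in those of the control libraries. Tumour-like cells had 22.1 and 14.2 CPM in the shRNA libraries and 18.0 and 18.2 CPM in the control libraries, below every fibroblast-like value, and the macrophage or monocyte-like class had at most 1.25 CPM, all of which free RNA from tumour-like cells could give. With 189 fibroblast-like cells against 27465 tumour-like cells, tumour-like cells held 93.2% to 98.1% of Fst UMIs. Fstl3 was low in tumour-like cells, with 0.328 and 0.205 CPM (30 and 19 UMIs) in the shRNA libraries and 0.227 and 0.327 CPM (17 and 19 UMIs) in the control libraries. Macrophage or monocyte-like cells stood above that in every library, with 0.683 and 0.699 CPM in the shRNA libraries and 0.711 and 0.506 CPM in the control libraries. Fibroblast-like cells averaged 8.30 CPM, on only 8 UMIs.

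Receptor genes had their highest levels outside the tumour-like class. Tgfbr2 stood at 367 and 530 CPM in fibroblast-like cells of the shRNA libraries and at 391 and 437 CPM in those of the control libraries, above every other class in every library. It averaged 96.4 CPM in endothelial-like, 68.6 CPM in T and NK-like, 53.3 CPM in macrophage or monocyte-like and 19.2 CPM in tumour-like cells. Tgfbr1 averaged 58.1 CPM in macrophage or monocyte-like cells and 3.02 CPM in tumour-like cells. In tumour-like cells, free RNA from macrophages could account for about 9.59% and 14.1% of the Tgfbr1 level in the shRNA libraries and 33.8% and 30.3% in the control libraries, judged from macrophage markers counted in them. Acvr1b, the activin type I receptor, was low in every class, with means between 2.77 CPM in tumour-like and 15.3 CPM in fibroblast-like cells.

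Against the control tumours, Inhba was the only one of the 10 genes that passed in tumour-like cells. It rose by 0.55 on the log2 scale (SE 0.08, 1.47-fold; edgeR adjusted p = 0.0200), and it averaged 52.4 ± 0.669 CPM in the shRNA and 36.8 ± 0.671 CPM in the control libraries (SD, n = 2 each). Both shRNA values lay above both control values, by far more than the libraries of a group differed. In this class, 109 of 14562 genes passed, which is 0.749%. In simulated counts for this comparison the share of false calls was above the threshold of 0.05, so adjusted p-values near it may be too small. The call needed both controls: it was lost without control library 1 and without control library 2, at log2 changes of 0.58 and 0.53. With 1 control left, far fewer of all genes tested passed than with all 4 libraries, so the loss was not particular to Inhba. On the log2(CPM + 1) scale Inhba passed in limma with nothing subtracted (0.50, limma adjusted p = 0.0298; 155 genes passed). It missed the threshold when the level that free macrophage RNA could give was subtracted from every gene (0.50, limma adjusted p = 0.115; 3 genes passed), although its unadjusted limma p was 0.000253 with the subtraction and 0.00019 without it. Over all alternatives tried the adjusted p ran from 1.23e-07 to 0.372, and the change stayed between 0.44 and 0.58.

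The share of tumour-like cells with an Inhba UMI was 30.4% and 28.1% in the shRNA libraries and 23.5% and 20.7% in the control libraries, at median depths of 9950 and 9068 against 9756 and 8336 UMIs per cell. The exact 95% binomial intervals, which cover counting error only, ran from 27.2% to 31.5% over the shRNA libraries and from 19.7% to 24.6% over the control libraries. Thinned to 1000 UMIs in every cell, it was 4.73% and 4.45% in the shRNA libraries against 2.95% and 3.33% in the control libraries. T and NK-like cells, given as a background, had an Inhba UMI in 0.648% and 0.667% of cells in the shRNA libraries, and in 0 of 376 cells (which allows a share of cells with a UMI of up to 0.798%) and 1.12% in the control libraries, at median depths of 2016 and 2110 against 2074 and 2031 UMIs. Free RNA from tumour-like cells could give 78.5% and 100% of that class's Inhba level in the shRNA libraries and 39.1% in control library 2. Macrophage markers moved with the groups in tumour-like cells: the 14 markers summed to 191 and 200 CPM in the shRNA libraries and 408 and 535 CPM in the control libraries, none of them at 0. By the median ratio of these markers, free macrophage RNA could give about 0.430 and 0.0988 CPM of Inhba in the shRNA libraries and 0.453 and 0.133 CPM in the control libraries.

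**Figure D3:**
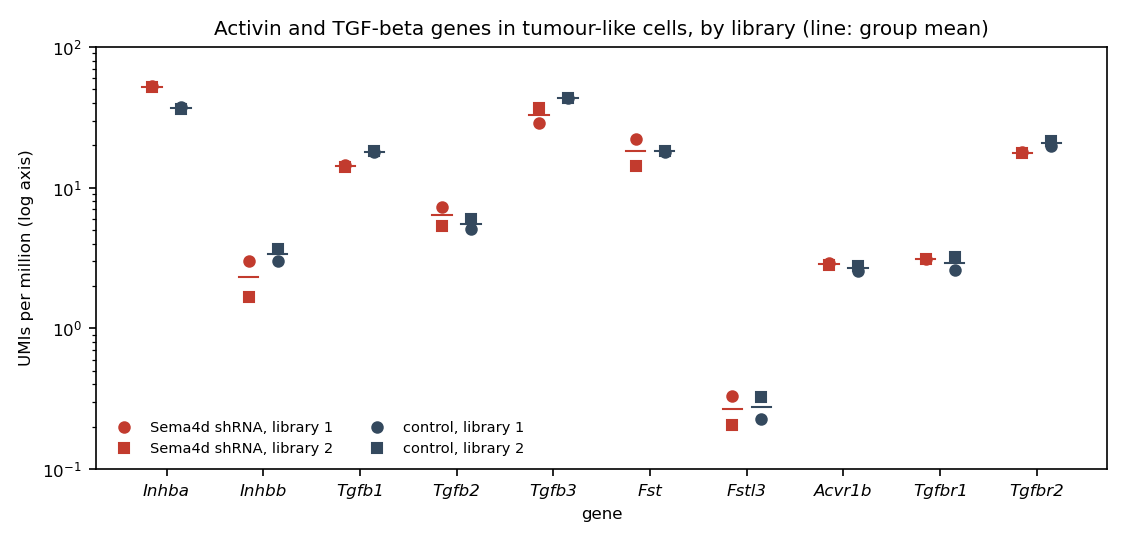
Level of the 10 genes in tumour-like cells in CPM (log axis), 1 point per library, with Sema4d shRNA libraries left of control libraries and lines at the group means. The 52.8 and 51.9 of Inhba in shRNA libraries lie above the 37.3 and 36.3 in control libraries, and the 14.5 and 14.1 of Tgfb1 lie below 18.0 and 18.1.

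The other members did not pass in tumour-like cells. Tgfb1 stood at 14.5 and 14.1 CPM in the shRNA libraries, against 18.0 and 18.1 CPM in the control libraries, a log2 change of -0.29 (SE 0.09; edgeR adjusted p = 0.188). Tgfb3 stood at 29.0 and 37.0 CPM in the shRNA libraries, against 43.6 and 43.5 CPM in the control libraries, a log2 change of -0.35 (SE 0.12; edgeR adjusted p = 0.299). For both genes the groups did not overlap. Free macrophage RNA could give 3.05% and 2.94% of the Tgfb1 level in the shRNA libraries and 7.16% and 6.60% in the control libraries. With no filter on low counts the Tgfb3 change was -0.33 and passed (edgeR adjusted p = 0.0132), where 902 of 21971 genes passed, against 109 of 14562 with the filter. Without shRNA library 2 it was -0.56 and passed, and without shRNA library 1 it was -0.17 and did not. Inhbb, at a log2 change of -0.48 (SE 0.27), passed without shRNA library 1, at -0.94, and under no other setting tried. Fits with 1 shRNA library left called far more of all genes than the fit with all 4 libraries. The remaining 6 genes had log2 changes between -0.17 and 0.24 (edgeR adjusted p between 0.444 and 0.998). In all, the groups did not overlap for 6 of the 10 genes in this class, 2 higher and 4 lower in the shRNA libraries, against 43.6% of all genes tested. With 2 libraries a group, an exact two-sided permutation test of a single gene cannot go below p = 0.333.

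Tumour-like cells fell into 8 states, named by marker genes after clustering without the 10 members. By the mean of 4 libraries Inhba was highest in the Ankrd1 and keratin-rich state (55.7 CPM), with 57.7 and 67.1 CPM in the shRNA libraries and 53.6 and 44.5 CPM in the control libraries. It was close to that in the interferon-high, the stress and hypoxia and the cycling states (means of 50.1, 49.2 and 49.2 CPM over 4 libraries), and neighbours in this order overlapped. The mean was lowest in the Slurp1 and Ly6c1-high state (25.7 CPM), with 28.1 and 42.3 CPM in the shRNA libraries and 16.1 and 16.1 CPM in the control libraries. The order differed between libraries: the interferon-high state was highest in shRNA library 1 and the stress and hypoxia state in control library 2, and in shRNA library 2 the Slurp1 and Ly6c1-high state stood above 4 others. Both shRNA libraries lay above both controls in 7 of the 8 states. Among the 8249 genes tested in every state, 0.800% did so in at least 7. In the interferon-high state the groups overlapped, with 69.3 and 39.5 CPM in the shRNA libraries and 42.6 and 49.0 CPM in the control libraries.

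Within single states, Inhba passed in the Slurp1 and Ly6c1-high cells, where the log2 change was 1.14 (SE 0.22; edgeR adjusted p = 0.0160), and the call was lost without shRNA library 2 (log2 0.83, edgeR adjusted p = 0.103). The other 7 states gave Inhba changes of 0.13 to 0.96 that did not pass with all libraries in, and in 4 of them (the cycling, interferon-high, Ankrd1 and keratin-rich and Slpi and Enpp2-high states) it passed with 1 of the shRNA libraries left out and not with the other left out. In each of these 4 states, more of all genes passed with either shRNA library left out than with all libraries in. In the interferon-high state the Inhba change was -0.19 without shRNA library 1, where it did not pass, and 0.54 without shRNA library 2, where it did. With all libraries in, the Inhba change was 0.96 (SE 0.30, edgeR adjusted p = 0.416) in the Slpi and Enpp2-high cells. The values there were 58.3 and 31.1 CPM in the shRNA libraries and 22.3 and 24.6 CPM in the control libraries. The difference of the Inhba change between the states did not pass either (edgeR interaction over 8 states, adjusted p = 0.813; 0.408% of genes passed). The shares of genes that passed were 0.885% in the Slurp1 and Ly6c1-high, 0.822% in the Slpi and Enpp2-high, 0.484% in the cycling, 0.520% in the interferon-high, 0.514% in the stress and hypoxia, 0.500% in the immediate-early-high and 0.0855% in the Ankrd1 and keratin-rich state and 0.373% in a state without a name, led by Gm43666, Cacna1e and mitochondrial genes. No other member passed in any state. States differed in size between libraries: the Slurp1 and Ly6c1-high cells were 1.88% and 1.91% of tumour-like cells in the shRNA libraries and 6.92% and 7.74% in the control libraries. The unnamed state, whose cells were shallow (median of 3106 and 3328 UMIs in the shRNA libraries and 2832 and 2286 in the control libraries), was 2.55% and 4.02% of tumour-like cells in the shRNA libraries and 16.3% and 10.98% in the control libraries, and its part in the results over all tumour-like cells was tested only through the mix of states. With every library weighted to the same mix of states, the Inhba change over all tumour-like cells was 0.44 on the log2(CPM + 1) scale (SE 0.08; limma adjusted p = 0.0408).

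**Figure D4:**
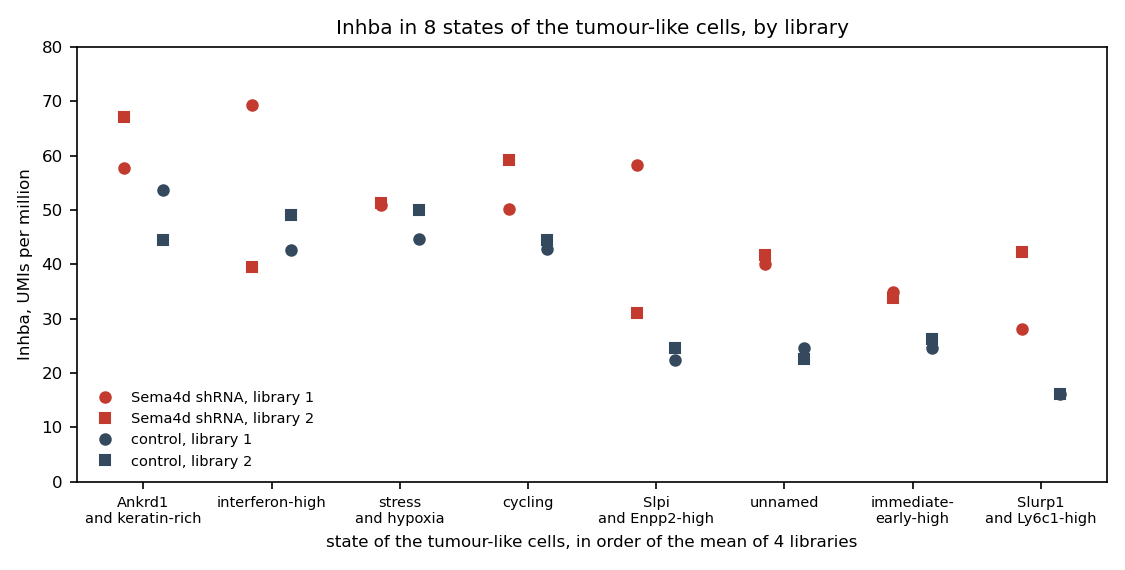
Inhba level in CPM (vertical axis) in 8 states of the tumour-like cells, 1 point per library, with Sema4d shRNA libraries left of control libraries. The shRNA points lie above both control points in 7 states, and in the interferon-high state the groups overlap (69.3 and 39.5 against 42.6 and 49.0).

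The other ligands followed the states in a different order from Inhba. The Slpi and Enpp2-high state had the highest mean of Tgfb3, with 64.8 and 78.3 CPM in the shRNA libraries and 73.8 and 83.1 CPM in the control libraries, and the cycling state the lowest, with 14.4 and 19.8 CPM in the shRNA libraries and 20.4 and 19.3 CPM in the control libraries. The same state led in Tgfb1 (mean of 23.8 CPM), Tgfb2 (14.3 CPM) and Inhbb (9.45 CPM). For Inhbb it overlapped with the Slurp1 and Ly6c1-high state (8.21 CPM), and the other 6 states had means of at most 2.36 CPM. Inhbb in the Slpi and Enpp2-high state stood at 11.8 and 7.99 CPM in the shRNA libraries, against 7.77 and 10.3 CPM in the control libraries (log2 change 0.18, SE 0.19). That state was 27.97% and 9.48% of tumour-like cells in the shRNA libraries and 20.35% and 26.8% in the control libraries. Its part in the Inhbb change over all tumour-like cells was tested only through the mix of states. Tgfb2 in the Slpi and Enpp2-high state stood at 22.3 and 14.2 CPM in the shRNA libraries, against 8.53 and 12.0 CPM in the control libraries, with a log2 change of 0.87 (SE 0.21; edgeR adjusted p = 0.0954). Without shRNA library 2 that change was 1.09 and passed, in a fit with 1 shRNA library left that called more of all genes. Tgfb1 lay below both controls in both shRNA libraries in 4 of the 8 states, a count that 17.8% of the genes tested in every state reached. Fst was lowest in the unnamed and the stress and hypoxia states (7.24 and 7.79 CPM) and highest in the Slurp1 and Ly6c1-high state (26.4 CPM, range 13.4 to 39.0). The state means of the receptors were 1.69 to 3.54 CPM for Acvr1b, 1.98 to 3.72 CPM for Tgfbr1 and 13.9 to 32.3 CPM for Tgfbr2.

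In macrophage or monocyte-like cells no member passed, of 7 tested. Among all genes of the class, 0.239% passed (edgeR). The Inhba change was 1.18 on the log2 scale (SE 1.33; edgeR adjusted p = 0.872), and the groups overlapped, with library 1 of each group above library 2 of each group. Leaving out shRNA library 1 turned the change to -0.37. Tgfb1 stood at 68.8 and 60.0 CPM in the shRNA libraries, against 84.5 and 77.4 CPM in the control libraries, a log2 change of -0.24 (SE 0.12; edgeR adjusted p = 0.565). Tgfbr1 had 46.5 and 64.0 CPM in the shRNA libraries and 58.1 and 63.7 CPM in the control libraries, and Tgfbr2 47.7 and 52.9 CPM in the shRNA libraries and 53.5 and 59.1 CPM in the control libraries. The groups did not overlap for 2 of the 7 members tested, Tgfb1 and Tgfbr2, both lower in the shRNA libraries, against 43.3% of the genes tested.

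Inhba in this class lay in a few clusters. In the cluster led by Plac8, Ly6i, Ly6c2 and Il1b, with Ly6c2 a marker of classical monocytes, it stood at 438 and 145 CPM in the shRNA libraries and at 294 and 139 CPM in the control libraries. That cluster held 16.1% and 7.77% of the class's cells in the shRNA libraries and 10.2% and 5.97% in the control libraries, but 42.3% and 37.1% of its Inhba UMIs in the shRNA libraries and 46.9% and 50.3% in the control libraries. The cluster led by Ifnb1 and Mmp12 had 149 and 46.1 CPM in the shRNA libraries and 68.5 and 28.2 CPM in the control libraries. Another, led by Slc8a1 and Pde7b, had 62.0 and 17.8 CPM in the shRNA libraries and 72.7 and 6.07 CPM in the control libraries. The other 6 clusters, among them those with Folr2, a gene of tissue macrophages, as a leading gene, had 0 to 20.3 CPM in any library. Tgfb1 was also highest in the Plac8 and Ly6c2 cluster, at 142 and 150 CPM in the shRNA libraries and 190 and 134 CPM in the control libraries, and between 40.6 and 102 CPM in the other clusters.

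**Figure D5:**
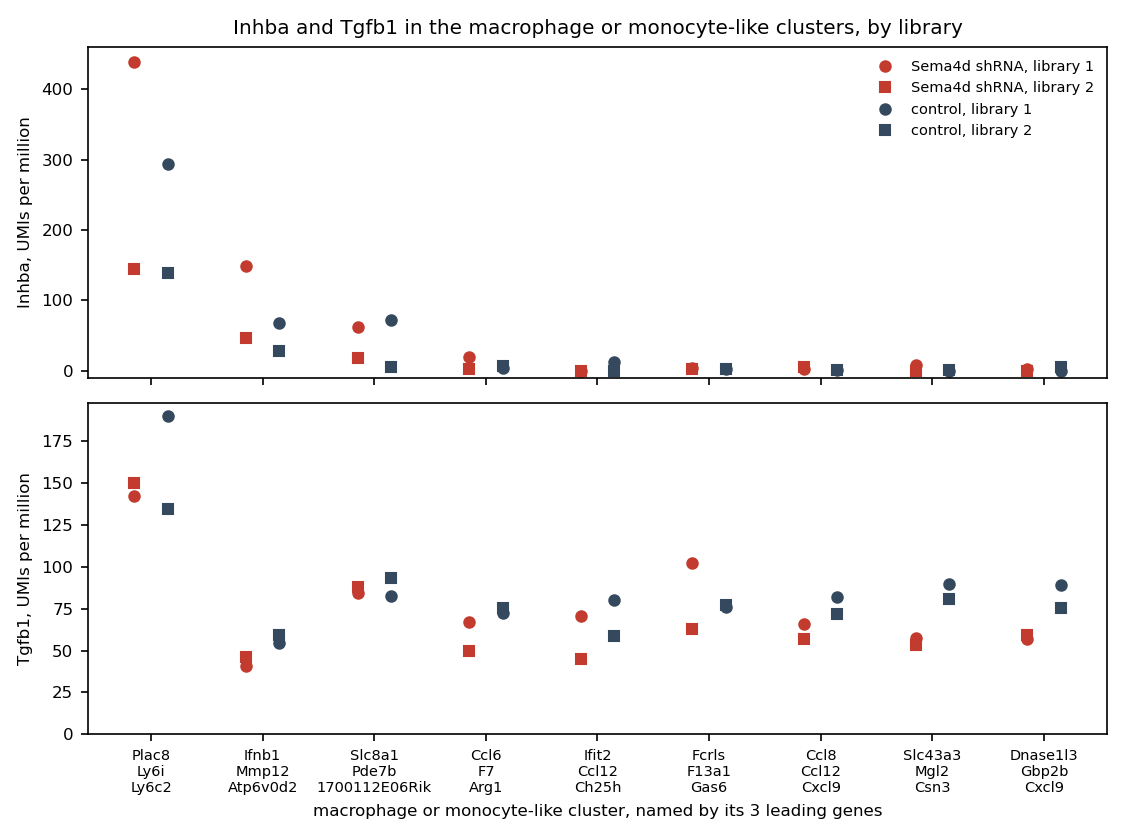
Inhba (top) and Tgfb1 (bottom) in CPM in the 9 macrophage or monocyte-like clusters, each named by its 3 leading genes, 1 point per library, with Sema4d shRNA libraries left of control libraries. Inhba reaches 438 and 145 in shRNA libraries and 294 and 139 in control libraries in the Plac8 cluster and stays at or below 20.3 in 6 clusters, while Tgfb1 is 40.6 or more in every cluster.

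In T and NK-like cells only Tgfb1 and Tgfbr2 had enough UMIs to be tested, and neither passed, where 0.542% of all genes did (edgeR). Tgfb1 stood at 61.4 and 58.6 CPM in the shRNA libraries, against 67.6 and 76.0 CPM in the control libraries, a log2 change of -0.24 (SE 0.20; edgeR adjusted p = 0.892). Tgfbr2, through which TGF-beta restrains T cells, stood at 67.2 and 61.4 CPM in the shRNA libraries, against 75.2 and 70.5 CPM in the control libraries, a log2 change of -0.18 (SE 0.19; edgeR adjusted p = 0.931). Neither gene overlapped between the groups, as was the case for 36.7% of the genes tested. In tumour-like cells Tgfbr2 stood at 17.8 and 17.7 CPM in the shRNA libraries, against 19.9 and 21.4 CPM in the control libraries. Tgfb1 and Tgfbr2 were thus both lower in both shRNA libraries in each of the 3 classes tested, without passing in any. Of the 7899 genes tested in all 3 classes, 4.62% were lower in this way, with or without passing. For the 7 members tested in macrophage or monocyte-like cells, the difference of the change there from that in the tumour-like class did not pass. The edgeR interaction gave adjusted p between 0.486 and 0.986 for them, and 2.87% of genes passed. Nor did it pass for Tgfb1 and Tgfbr2 in T and NK-like cells (log2 differences of 0.11, SE 0.23, and 0.04, SE 0.22), where 0.498% of genes passed. Inhbb, Fstl3 and Tgfb2 in macrophage or monocyte-like cells, and the remaining members in T and NK-like cells, had too few UMIs to be tested there. The interaction was fitted for them as well and passed for none, but on so few UMIs it could not decide. In macrophage or monocyte-like cells the log2 difference from tumour-like cells was 1.64 (SE 0.68; edgeR interaction adjusted p = 0.298) for Inhbb, on 18 UMIs. It was 0.32 (SE 0.73; adjusted p = 0.929) for Fstl3 and -0.57 (SE 0.76; adjusted p = 0.845) for Tgfb2.

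The lists of other pathway genes, chosen with earlier results of these data known, gave few calls. In tumour-like cells, of the other receptors and co-receptors 0 of 11 tested passed, of the other ligands and inhibitors 0 of 10, of the genes of latency and activation 1 of 18, of the SMADs and their regulators 0 of 19 and of the target genes 0 of 36 (edgeR). Their median log2 changes were -0.13, -0.13, -0.14, 0.02 and 0.09, against 0.0058 over all genes tested, and 1, 2, 5, 4 and 11 of them had an unadjusted p under 0.05 (22 different genes, since Skil is on the last 2 lists), as did 12.8% of all genes tested. Nrros, the 1 gene that passed, encodes a protein that anchors latent TGF-beta on macrophages and microglia. It had 0.493 and 0.605 CPM in tumour-like cells of the shRNA libraries, against 1.39 and 1.76 CPM in those of the control libraries (log2 -1.47, SE 0.26; edgeR adjusted p = 0.0451). The call was lost in 8 of 16 alternatives, among them leaving out either control library, where far fewer of all genes tested passed. On the log2(CPM + 1) scale, which understates changes of so low a gene, it passed in limma with nothing subtracted (-0.73, limma adjusted p = 0.0250) and not with the free macrophage RNA subtracted (-0.34, limma adjusted p = 0.431). In macrophage or monocyte-like cells it had 72.5 and 66.0 CPM in the shRNA libraries and 74.6 and 81.1 CPM in the control libraries. Free macrophage RNA could give 0.465 and 0.456 CPM of it in tumour-like cells of the shRNA libraries and 1.13 and 1.25 CPM in those of the control libraries, which leaves 0.0281 and 0.149 CPM in the shRNA libraries and 0.254 and 0.507 CPM in the control libraries.

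In macrophage or monocyte-like cells no gene of the 5 lists passed, of 10, 8, 13, 19 and 30 tested. An unadjusted p under 0.05 was found for 1, 0, 0, 5 and 10 of them (14 different genes, since Pmepa1 and Tgif1 are on 2 lists each; edgeR), and for 9.63% of all genes tested. The median log2 changes were -0.06, 0.34, 0.07, 0.02 and 0.23, against 0.0022 over all genes. In T and NK-like cells 1 gene of the lists passed, of 2, 0, 7, 15 and 19 tested, and 2 genes had an unadjusted p under 0.05, as did 7.58% of all genes tested. It was Junb, an immediate-early gene that TGF-beta is one of many signals to induce, with 636 and 775 CPM in the shRNA libraries, against 466 and 404 CPM in the control libraries (log2 0.71, SE 0.14; edgeR adjusted p = 0.00113). The call was lost without shRNA library 2 (log2 0.58, edgeR adjusted p = 0.0772). Macrophage markers in these cells summed to 1115 and 928 CPM in the shRNA libraries and 1247 and 1268 CPM in the control libraries, and their part in the Junb difference was not tested. Junb was also on the list of immediate-early genes used to name tumour-like states.

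Across the 26 clusters of at least 100 cells, all libraries summed, the genes whose log2(CPM + 1) followed Inhba most closely were Ptgs2 (r = 0.905), Tiparp (0.854), Vegfa (0.825), Jmjd6 (0.821) and Plk2 (0.809), out of 5582 genes. Over the 11 tumour-like clusters alone they were Jmjd6 (r = 0.912), Wsb1 (0.907), Ppp4r2 (0.906), Fbxw11 (0.868) and 4921524J17Rik (0.867), so that 1 gene was named by both. Tgfb1 was followed by Ptpn1 (0.957), Ubl3 (0.95), Neurl3 (0.949), Kdm7a (0.947) and Edem1 (0.946). Tgfb3 was followed by Ltbp3 (0.918), the gene of a protein that binds latent TGF-beta, and by Ptgfrn (0.900), Wisp2 (0.900), Sphk1 (0.896) and the collagen gene Col1a1 (0.893). Fst was followed by Sparc (0.975), Tm4sf1 (0.974), Sdc2 (0.974), Prrx1 (0.972) and Prkg2 (0.972). These are Pearson correlations over clusters that share the same 4 libraries and differ in depth, given as a description.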

How the data were processed

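The 4 deposited matrices hold raw UMI counts per gene and cell, made by the authors with PISA 1.0 per the file headers. STAR 2.5.1b and the builds GRCh38 and mm10 are named in the submitters' processing notes. The annotation and strand setting were not given in the sources used here. Cells with under 300 genes or over 20% mitochondrial UMIs were left out, which kept 45062 of 45220. Doublets were called with scanpy 1.11.5. The caller's own threshold marked 0% of cells in both shRNA libraries, where the top 6% by score were left out instead, and 0.766% and 1.51% in the control libraries, so the rule differed between the groups. The 43400 cells left were clustered (2000 variable genes without the members, 30 components, Leiden resolution 1). Clusters were named by marker lists, and the limits for naming were set after seeing the data. Cells are numbered in the files, and pairs of libraries shared 751 to 3753 names, which are not barcodes.

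UMIs were summed per library and class. They were tested with edgeR 4.0.16 (quasi-likelihood, robust, TMM, filterByExpr, R 4.3.3), with Benjamini-Hochberg adjustment over all genes tested and a threshold of 0.05, in 3 classes (tumour, macrophage or monocyte, T and NK) and in tumour-like states, each with at least 50 cells in every library. Other classes were not tested. On simulated counts the share of false calls was above that threshold. limma 3.58.1 on log2(CPM + 1) and DESeq2 1.42.0 served as alternatives. The level that free macrophage RNA could give was the macrophage level times the median ratio of macrophage markers in the class to those in macrophages. Free RNA from tumour-like cells was judged in the same way from tumour markers. These are estimates and not upper limits. The 10 members are always named, other pathway genes where they passed, and the 5 genes most like each ligand or antagonist that reached 20 CPM in a cluster. Members and lists were chosen with earlier results of these data known. Self-made names of cells may differ from the study's own.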

Additional observations from a re-analysis of the deposited data

How the results depend on the processing

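Inhba in tumour-like cells kept its direction under every alternative run. The fit that was not robust, limma with nothing subtracted, the libraries left out for states and differences between classes, and every alternative for Nrros, Junb and Sema4d were chosen after seeing the data. Inhba lost its call in limma with free macrophage RNA subtracted (log2 0.50), where limma with nothing subtracted kept it (0.50), and without either control library, and its changes with 1 library left out ran from 0.53 to 0.58. In the Slurp1 and Ly6c1-high state they ran from 0.83 to 1.44. Counts of genes called moved more. In tumour-like cells (109; 15 higher, 94 lower) they were 282 with DESeq2 (74 higher, 208 lower), 902 with no filter on low counts (379 higher, 523 lower), 60 at Leiden resolution 2, 155 in limma with nothing subtracted (13 higher, 142 lower), 3 in limma with free RNA subtracted (2 higher, 1 lower) and 7 to 715 with 1 library left out. In macrophage or monocyte-like cells (30; 6 higher, 24 lower) they were 76 with DESeq2 (46 higher, 30 lower), 359 with no filter (191 higher, 168 lower), 15 with a fit that was not robust and 37 to 317 with 1 library left out. In T and NK-like cells (44; 25 higher, 19 lower) they were 29 with DESeq2 (10 higher, 19 lower), 87 with no filter (53 higher, 34 lower), 24 with no doublets left out, 29 at Leiden resolution 0.5 and 56 to 91 with 1 library left out. Leaving out 1 library gave 15 to 346 in the cycling, 31 to 374 in the interferon-high, 56 to 150 in the stress and hypoxia, 53 to 113 in the immediate-early-high, 54 to 576 in the Ankrd1 and keratin-rich, 28 to 413 in the Slpi and Enpp2-high, 70 to 176 in the Slurp1 and Ly6c1-high and 18 to 48 in the unnamed state, and 195 to 837 and 40 to 72 for the differences of macrophage or monocyte-like and of T and NK-like from tumour-like cells. The labels do not say that replicate numbers pair libraries, and deviations of same-numbered libraries correlated at -0.08, 0.07 and 0.0033 in the 3 classes. With the replicate number as a block, 89 (12 higher, 77 lower), 144 (91 higher, 53 lower) and 43 (22 higher, 21 lower) genes were called, Inhba in tumour-like cells kept its call (0.55) and Inhba in macrophage or monocyte-like cells passed (1.09, edgeR adjusted p = 0.00374). Changes that did not pass and turned direction were Fst in tumour-like cells (-0.011 with the same mix of states, -0.029 with free RNA subtracted, -0.030 in limma alone, -0.29 to 0.32 with 1 library left out), Fstl3 there (-0.0028 with DESeq2, -0.038 with library totals, -0.0060 with the block, -0.015 with no doublets left out, -0.0092 with the same mix, -0.0069 with free RNA subtracted, -0.012 in limma alone, -0.35 to 0.29 with 1 library left out), and, with 1 library left out, Tgfbr1 in tumour-like cells (-0.001 to 0.29), Inhba in the interferon-high state (-0.19 to 0.54) and, in macrophage or monocyte-like cells, Inhba (-0.37 to 2.33), Fst (-0.026 to 0.53), Tgfb3 (-0.62 to 0.38) and Tgfbr1 (-0.26 to 0.12). The cause was not tested. The 5 shares of ligand UMIs in tumour-like cells moved by less than the spread of the libraries when cells without a name were left out of the total. That was the only alternative run for the shares. Neutrophil-like and endothelial-like cells were 97 and 44 in all, so levels there rest on few UMIs.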

Other observations

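Some clusters outside the comparisons held high levels of ligand genes. A cluster of 19 cells without a name, led by the mural-cell genes Rgs5, Tagln and Acta2, had 292 CPM of Inhba, 152 CPM of Tgfb3, 79.1 CPM of Tgfb2 and 73.0 CPM of Fstl3, all libraries summed. A cluster of 474 cells without a name, with markers of both lymphocytes and monocytes, had 135 CPM of Tgfb1.

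Of the normal mammary epithelial-like cells, the 38 of the cluster led by Wfdc18 and Igfbp5 had 392 CPM of Inhbb and 370 CPM of Tgfb3 (52 and 49 UMIs), and the 73 of the cluster led by Ptn had 94.6 and 37.5 CPM (58 and 23 UMIs), all libraries summed.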
